A study of Mus musculus with 66 samples.

Results

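Imprinted genes were measured by polyA RNA sequencing in cultured mouse neurons in which 1 of 9 chromatin or transcription regulators had been lowered. The genes were taken from a list of 40 symbols, of which 39 had a row among the 30084 gene symbols of the count table (Rian was not analysed here). A filter on low counts left 38 of them among the 16145 genes tested, and it removed Phlda2, a growth-restraining gene of the placenta.

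An imprinted gene is transcribed mainly from the copy inherited from 1 parent, because the copies carry different DNA methylation at an imprinting control region. Imprinted genes lie in clusters in which noncoding RNAs, growth regulators and brain-expressed genes share such a region, and several of them are known for parental bias in neurons. The marks are set in the germ line by de novo DNA methyltransferases that include Dnmt3a and are kept afterwards by maintenance enzymes and zinc finger proteins. The counts described here do not separate the parental copies, so each value is the sum of both.

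The neurons came from wildtype (WT) mouse embryos (e16.5) that were grouped by sex. They received lentivirus with a short hairpin RNA (shRNA) against Dnmt3a, Chd8, Med13l, Setd5, Kmt2c, Ash1l, Mbd5, Tbr1 or Kdm6b, or with a nontargeting shRNA, and a last set of cultures was left uninfected (no virus). Virus was removed on culture day 6 and lysis followed on day 10, with doses chosen to leave about 50% of each target by RT-qPCR. Each of the 11 conditions had 3 male and 3 female libraries, 66 in all, with total counts from 13759741 to 66558546 (median 31827840). All groups therefore share the genotype and the culture, and every group but the 1 without virus shares infection and an shRNA. The labels do not say that the 3 libraries of a group came from separate embryos or cultures, so the p-values measure the spread between these libraries, which may be technical.

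Ash1l, Kmt2c and Setd5 belong to the SET-domain histone methyltransferase family, Kdm6b is a histone demethylase, Chd8 is a chromatin remodeller, Dnmt3a is a de novo DNA methyltransferase, Mbd5 has a methyl-CpG-binding domain, Med13l is a Mediator subunit and Tbr1 is a T-box transcription factor. Mean target levels in CPM (counts relative to the TMM-scaled library size) ranged from 22.9% of nontargeting for Dnmt3a to 44.8% for Kdm6b (n = 6 each). The target levels of 2 libraries went against their labels. For male replicate 1 labelled Setd5 shRNA, Setd5 was at 141 CPM, against 42.9 and 42.7 CPM in the other male Setd5 shRNA libraries, and for male replicate 1 labelled Kdm6b shRNA it was at 44.9 CPM. Kdm6b was at 23.1 CPM in the first of these and at 39.9 CPM in the second, where the other male Kdm6b shRNA libraries had 17.2 CPM each. Setd5 was thus lower in the library labelled Kdm6b shRNA, and Kdm6b lower in the one labelled Setd5 shRNA. Whether the 2 labels were exchanged was not tested. The labels were kept, so the values for both shRNAs include these libraries unless stated otherwise. Among the 33 female libraries, Setd5 shRNA female replicate 1 held 17.6 CPM of the Y-linked gene Ddx3y, where the next highest female library held 0.381. Neuron markers (10 genes) summed to 7772 to 8857 CPM in the nontargeting libraries and microglia markers (6 genes) to 0.945 to 2.40. Fewer cells of a type and less RNA per cell cannot be told apart in such libraries.

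The promoters of 4 members that the results below turn on are shown first, with every CG pair, the site of DNA methylation, in capitals. They run from 250 bases before to 50 after the RefSeq start (GRCm38.p6), on the strand of the gene. The RefSeq table held 52 promoters for 31 of the 40 symbols.
Grb10, minus strand, chr11:12037371-12037670: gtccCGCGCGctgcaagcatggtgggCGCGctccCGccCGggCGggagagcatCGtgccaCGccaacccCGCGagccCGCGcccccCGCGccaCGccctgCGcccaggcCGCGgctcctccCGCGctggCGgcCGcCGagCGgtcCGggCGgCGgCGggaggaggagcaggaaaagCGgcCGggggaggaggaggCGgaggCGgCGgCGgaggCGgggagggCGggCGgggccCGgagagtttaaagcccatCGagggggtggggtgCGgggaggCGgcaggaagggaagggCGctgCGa
Grb10, minus strand, chr11:12027922-12028221: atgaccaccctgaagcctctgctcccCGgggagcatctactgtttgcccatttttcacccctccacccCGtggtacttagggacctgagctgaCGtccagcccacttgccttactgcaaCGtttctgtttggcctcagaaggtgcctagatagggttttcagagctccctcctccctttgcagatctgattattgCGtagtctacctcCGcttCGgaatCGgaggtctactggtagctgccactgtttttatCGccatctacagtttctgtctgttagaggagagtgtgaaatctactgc
Peg3, minus strand, chr7:6730370-6730669: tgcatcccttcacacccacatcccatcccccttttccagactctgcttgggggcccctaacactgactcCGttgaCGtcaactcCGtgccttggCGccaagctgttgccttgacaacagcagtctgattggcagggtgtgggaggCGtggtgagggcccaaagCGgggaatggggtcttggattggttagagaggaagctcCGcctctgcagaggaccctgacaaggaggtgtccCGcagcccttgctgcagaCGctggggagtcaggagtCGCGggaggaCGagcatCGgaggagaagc
Zim1, minus strand, chr7:6696383-6696682: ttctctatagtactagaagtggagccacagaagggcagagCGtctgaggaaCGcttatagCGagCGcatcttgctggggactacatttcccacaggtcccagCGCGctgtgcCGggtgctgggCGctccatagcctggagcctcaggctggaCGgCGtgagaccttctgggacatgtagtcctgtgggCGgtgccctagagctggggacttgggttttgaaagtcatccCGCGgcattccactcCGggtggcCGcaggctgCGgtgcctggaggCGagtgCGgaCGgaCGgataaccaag
Magel2, plus strand, chr7:62376729-62377028: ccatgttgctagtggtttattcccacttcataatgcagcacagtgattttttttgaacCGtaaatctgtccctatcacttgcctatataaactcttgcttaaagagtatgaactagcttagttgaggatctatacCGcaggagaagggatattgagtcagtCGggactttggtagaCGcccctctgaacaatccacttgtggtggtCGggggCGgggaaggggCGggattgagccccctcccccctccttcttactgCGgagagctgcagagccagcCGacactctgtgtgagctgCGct

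The first Grb10 promoter held 45 CG pairs and the second held 9. Peg3 had 13, Zim1 had 20 and Magel2 had 10, where the median over all 32851 promoters of this length was 7 and over the 52 promoters of members 13.5. The letters TGCCGC, which the imprint-keeping zinc finger protein Zfp57 is known to recognise when methylated, stood on either strand in 13 of those 52 promoters (25%) and in 11.6% of all promoters. The letters contain a CG pair, of which the member promoters hold more, and the shares were not compared at equal CG content. Nearly identical Mest promoters were counted separately. Of the 5 printed, the first Grb10 promoter and the Zim1 promoter held these letters. A match of letters is a description and not a binding site, and methylation was not measured in these libraries.

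In the nontargeting libraries the members spanned about 4 orders of magnitude per length of annotated exon. Nnat, the small membrane protein neuronatin, led with 551 ± 185 CPM per kb (SD, n = 6). Ndn and Snrpn of the Prader-Willi cluster, a MAGE-family protein and a splicing protein, had 137 ± 22.0 and 133 ± 6.30 CPM per kb and did not differ beyond their spread. Meg3, a long noncoding RNA, followed with 85.2 ± 9.84, then Inpp5f, a phosphoinositide phosphatase, with 65.5 ± 6.15, and Peg13, a noncoding RNA inside Trappc9, with 62.6 ± 10.9 CPM per kb, and these last 2 overlapped within their SDs. At the low end H19, Slc38a4, Airn, Igf2, Ddc, Calcr, Asb4, Dio3, Dlk1 and Phlda2 were all under 0.3 CPM per kb. Gnas, which encodes the stimulatory G protein alpha subunit, was at 1.88 ± 0.269 CPM per kb, and its annotated span overlaps 5 other genes. Of the 39 members with a row, 28 overlap another annotated gene, and the counting's strand setting is not given in the sources used here, so values of antisense pairs such as Igf2r and Airn, Nnat and Blcap, and Mest and Copg2 are uncertain.

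**Figure D1:**
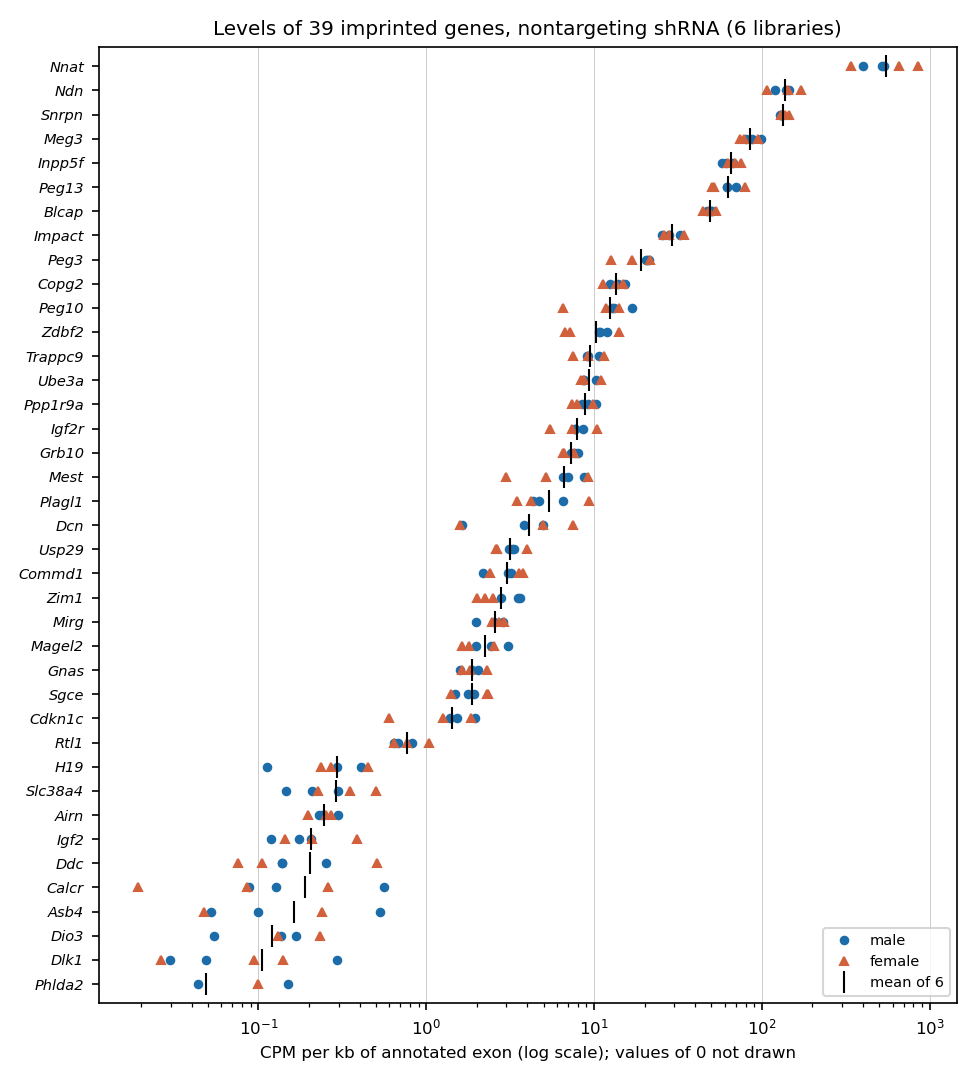
Level of each of the 39 imprinted genes in the 6 nontargeting libraries, in CPM per kb of annotated exon on a log axis; circles are male libraries, triangles female libraries and the bar their mean. Nnat lies highest with a mean of 551 and Phlda2 lowest with a mean of 0.0486.

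Against the nontargeting libraries of the same sex, Chd8 and Med13l shRNA moved the most members. A member was called at an adjusted p under 0.05 in edgeR's quasi-likelihood test over all 16145 genes, on the mean of the male and female effects (6 against 6 libraries). After Chd8 shRNA 13 of 38 members (34.2%) were called, 2 higher and 11 lower, where 22.3% of all genes were called, 9.85% higher and 12.5% lower. Med13l shRNA gave 8 called members (21.1%), 1 higher and 7 lower, beside 24.1% of all genes, 11.8% higher and 12.3% lower. For Setd5 shRNA the count was 3, 1 higher and 2 lower, beside 5.3% of all genes, 1.83% higher and 3.46% lower. Kmt2c shRNA called 2, 1 higher and 1 lower, beside 0.694% of all genes, 0.0991% higher and 0.595% lower. Ash1l shRNA called 1 member lower, beside 6.16% of all genes (2.67% higher, 3.49% lower), Dnmt3a shRNA 1 lower, beside 1.4% (0.477% higher, 0.923% lower), and Mbd5 shRNA 1 lower, beside 0.663% (0.0991% higher, 0.564% lower). Tbr1 shRNA called 1 higher, beside 1.33% of all genes (0.248% higher, 1.08% lower). The share called after Chd8 shRNA was above the background and the share after Med13l shRNA was near it, without a test of either. Both depended on the processing. In females alone, Chd8 shRNA called 2.63% of members beside 9.33% of all genes, and in males alone 13.2% beside 9.82%. With the replicate number as a block, Med13l shRNA called 20 of 38 members beside 41.5% of all genes. Same-numbered Med13l and nontargeting shRNA libraries did not all deviate together in males, so that count is less certain. Kdm6b shRNA had 0, with 7 members at an unadjusted p under 0.05 in edgeR, 1 member called by DESeq2, and 0.966% of all genes called (0.359% higher, 0.607% lower). In all, 20 of 38 members (52.6%) were called after at least 1 of the 9 shRNAs, against 44.5% of all genes tested, and 6 (15.8%) after at least 2, against 14.1%. The 9 comparisons share the same nontargeting libraries.

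**Figure D2:**
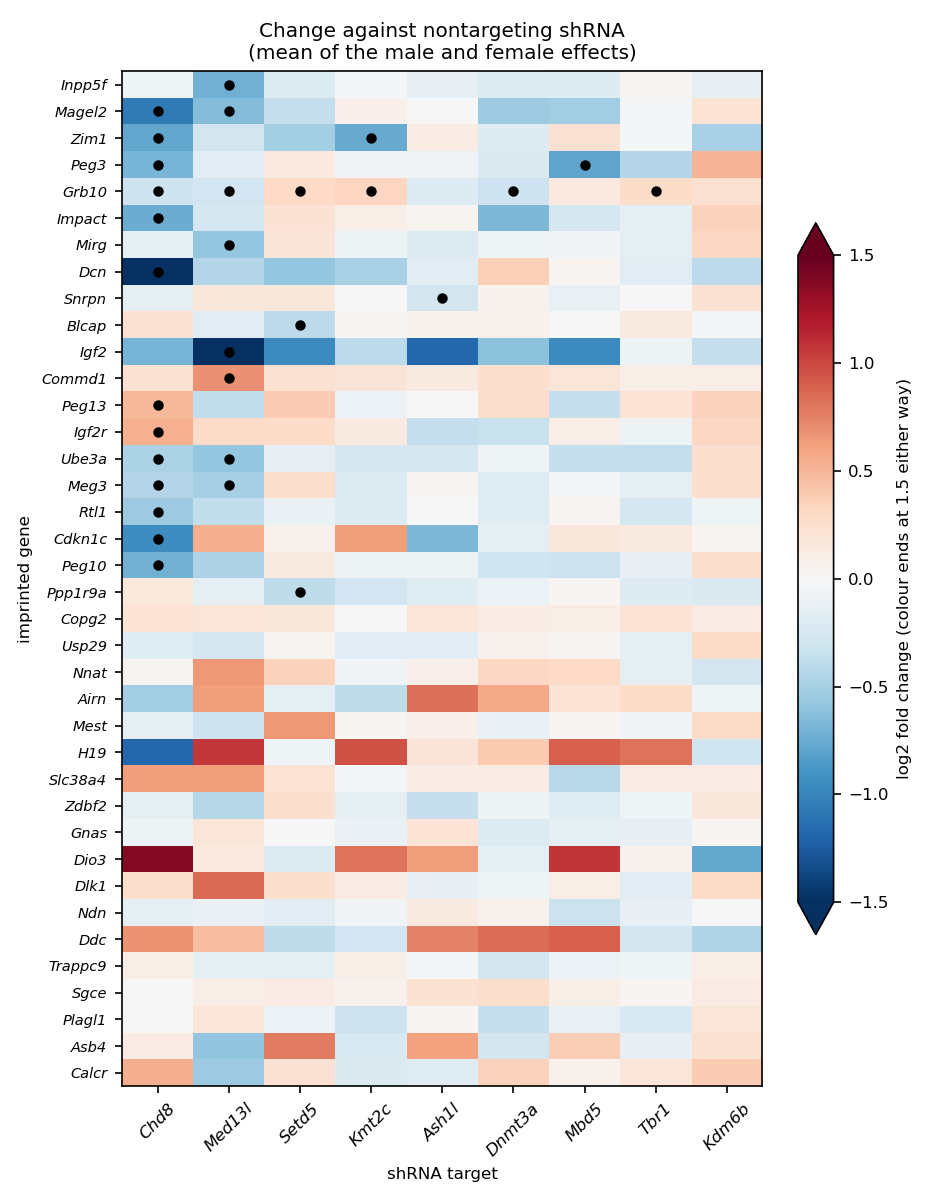
Log2 fold change of 38 imprinted genes (lines) after each of 9 shRNAs (columns) against nontargeting shRNA, with a black dot where the edgeR adjusted p was under 0.05. The dots number 13 in the Chd8 column and 8 in the Med13l column, and Grb10 carries 6.

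Grb10, an adaptor that binds insulin and growth factor receptors and is known for transcription from the paternal copy in neurons, was called after 6 of the 9 shRNAs. Only 6 of the 16145 genes (0.0372%) were called after as many. Its 6 nontargeting libraries lay between 59.3 and 73.3 CPM (median 67.7), and the libraries without virus between 55.7 and 73.8 (median 63.8). It was lower after Chd8 shRNA, at 48.6 to 58.0 CPM (median 52.4), after Dnmt3a shRNA, at 46.7 to 60.2 (median 54.4), and after Med13l shRNA, at 40.1 to 60.7 (median 56.7). The Chd8 shRNA libraries all lay below every nontargeting library, while those of Dnmt3a and Med13l shRNA overlapped them. Kmt2c shRNA raised it to 65.1 to 95.0 CPM (median 86.2), Setd5 shRNA to 72.8 to 91.9 (median 80.4) and Tbr1 shRNA to 75.4 to 84.4 (median 80.7). All 6 Tbr1 shRNA libraries lay above every nontargeting library, and the other sets of libraries overlapped.

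The Grb10 changes were small in every comparison. The log2 fold changes were -0.31 ± 0.0770 (SE) after Chd8 shRNA (edgeR adjusted p = 0.00172), -0.31 ± 0.0770 after Dnmt3a shRNA (0.0183) and -0.29 ± 0.0770 after Med13l shRNA (0.00413). They were 0.32 ± 0.0769 after Kmt2c shRNA (edgeR adjusted p = 0.0258), 0.30 ± 0.0770 after Setd5 shRNA (0.0105) and 0.28 ± 0.0769 after Tbr1 shRNA (0.0484). Grb10 was not called after Ash1l (-0.19), Mbd5 (0.15) or Kdm6b shRNA (0.23). Leaving out single libraries kept the calls after Chd8 and Med13l shRNA. The call after Dnmt3a shRNA was lost without any 1 of 6 of its 12 libraries (nontargeting male replicate 3 and female replicate 2, Dnmt3a shRNA male replicates 1 and 2 and female replicates 1 and 3), with a highest adjusted p of 0.108. After Kmt2c shRNA it was lost without any 1 of 8 of 12 libraries (all but nontargeting male replicate 3 and female replicate 2 and Kmt2c shRNA male replicate 2 and female replicate 2; highest 0.187), and after Tbr1 shRNA without any 1 of 10 (all but nontargeting female replicate 2 and Tbr1 shRNA female replicate 2; highest 0.144). After Setd5 shRNA it was lost without Setd5 shRNA female replicate 1 (0.0679).

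**Figure D3:**
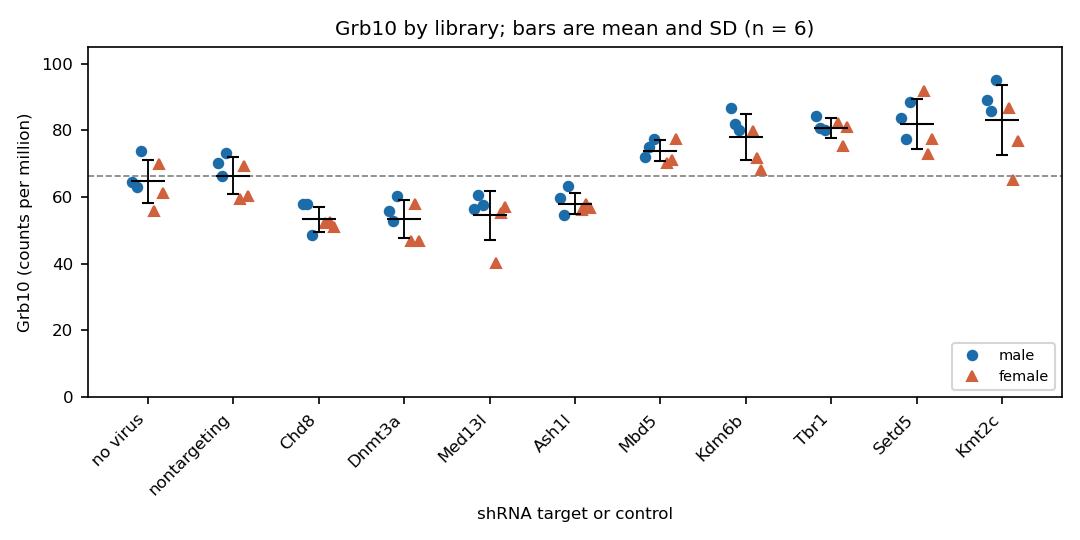
Grb10 in CPM in each library by condition; circles are male and triangles female libraries, bars the mean and SD of 6, and the dashed line the nontargeting mean of 66.4. Chd8, Dnmt3a and Med13l shRNA have means of 53.4, 53.4 and 54.4, and Kmt2c, Setd5 and Tbr1 shRNA of 83.1, 81.9 and 80.6.

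After Chd8 shRNA, 12.5% of all genes were called lower. Beside them stood 2 of 4 tested members of the Prader-Willi and Angelman cluster, 2 of 3 of the Peg3 cluster and 2 of 5 of the Dlk1-Dio3 cluster. No cluster was tested as a set, and the Ube3a, Meg3 and Rtl1 calls among these were lost without single libraries, as given below. Magel2, a MAGE-family protein of the Prader-Willi cluster, was at 3.57 to 6.08 CPM (median 5.01) against 7.56 to 14.3 (median 10.2) with nontargeting shRNA. The 2 sets of libraries did not overlap, and the change was -1.06 ± 0.219 log2 (edgeR adjusted p = 0.000212). In the Peg3 cluster, the zinc finger gene Peg3 was at 113 to 187 CPM (median 157) against 168 to 288 (median 274), a change of -0.70 ± 0.156 (edgeR adjusted p = 0.000587). Zim1, a zinc finger gene next to Peg3 that is expressed from the maternal copy, was at 9.71 to 16.2 CPM (median 13.1) against 16.3 to 29.4 (median 21.4), a change of -0.78 ± 0.168 (edgeR adjusted p = 0.000367). Zim1 libraries did not overlap between the groups and Peg3 libraries did. Usp29, which is transcribed away from Peg3, changed by -0.18 and was not called.

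In the Dlk1-Dio3 cluster, Meg3 was at 1014 to 1259 CPM (median 1122) after Chd8 shRNA against 1332 to 1778 (median 1507), without overlap. Its change of -0.44 ± 0.161 (edgeR adjusted p = 0.0429) was lost without any 1 of 9 of the 12 libraries (all but nontargeting male and female replicates 2 and Chd8 shRNA male replicate 2; highest 0.114). Rtl1, a retrotransposon-derived gene read from the opposite strand of the same cluster, changed by -0.55 ± 0.183 (edgeR adjusted p = 0.0240), from a median of 4.61 to 3.36 CPM. Peg10, another retrotransposon-derived gene, changed by -0.72 ± 0.254 (edgeR adjusted p = 0.0342), from a median of 86.2 to 52.9 CPM, and Cdkn1c, a cyclin-dependent kinase inhibitor, by -0.93 ± 0.327 (0.0330), from 2.95 to 1.53 CPM. Ube3a, the Angelman syndrome ubiquitin ligase, was at 115 to 164 CPM (median 136) against 172 to 228 (median 179), with a change of -0.48 ± 0.183 (edgeR adjusted p = 0.0490). The 6 Ube3a libraries all lay below the nontargeting ones, and those of Rtl1, Peg10 and Cdkn1c overlapped.

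These last calls were close to the threshold and each rested on single libraries. The Ube3a call was lost without any 1 library other than Chd8 shRNA female replicate 1 (highest adjusted p 0.128). The Rtl1 call was lost without nontargeting male replicate 3 or female replicate 1, or Chd8 shRNA male replicate 1 or female replicate 2 (highest 0.101). Peg10 was lost without nontargeting male replicate 3 or female replicates 1 or 2, or Chd8 shRNA male replicate 3 or female replicates 1 or 3 (highest 0.115). Cdkn1c was lost without nontargeting male replicate 2 or female replicates 1 or 3, or Chd8 shRNA male replicates 1 or 3 or female replicate 1 (highest 0.144). Without nontargeting female replicate 1, 7 members were called after Chd8 shRNA in place of 13, and no other library moved the count below 9.

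Among single genes, Impact, which restrains the amino acid sensor kinase Gcn2, was at 57.9 to 142 CPM (median 90.7) after Chd8 shRNA against 131 to 177 (median 144). The groups overlapped in 1 Chd8 shRNA library, and the change was -0.74 ± 0.188 (edgeR adjusted p = 0.00232). Dcn, the matrix proteoglycan decorin, had the largest fitted fold among the members called after Chd8 shRNA, with 3.62 to 11.8 CPM (median 5.72) against 9.27 to 43.4 (median 25.6) and a change of -1.89 ± 0.490 (edgeR adjusted p = 0.00310). Dcn is known as a fibroblast product, and the summed level of 8 meningeal fibroblast markers was 19.4 to 52.2 CPM (median 21.8) after Chd8 shRNA and 22.4 to 31.3 (median 25.7) with nontargeting shRNA. One of those 8 markers, Lum, was called lower (-1.64), Foxc1 and Aldh1a2 were at a median of 0.0650 and 0.0343 CPM in nontargeting libraries, and the part of these cells in the Dcn change was not tested.

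The members that rose after Chd8 shRNA were Peg13 and Igf2r. Peg13 was at 349 to 472 CPM (median 417) against 239 to 373 (median 294), a change of 0.49 ± 0.141 (edgeR adjusted p = 0.00792), with overlap. Its host gene Trappc9 changed by 0.09 and was not called. Igf2r, the receptor that carries Igf2 to lysosomes, was at 97.8 to 118 CPM (median 104) against 51.1 to 97.2 (median 71.6), without overlap, a change of 0.53 ± 0.165 (edgeR adjusted p = 0.0136). That call was lost without nontargeting female replicate 1 (0.0645). Airn, the antisense noncoding RNA over Igf2r, changed by -0.51 and was not called. With the replicate block, 16 members were called after Chd8 shRNA beside 36.9% of all genes. That fit added Copg2 (0.22, edgeR adjusted p = 0.0111) and Blcap (0.22, 0.0286) higher and H19 (-1.26, 0.00956) lower.

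**Figure D4:**
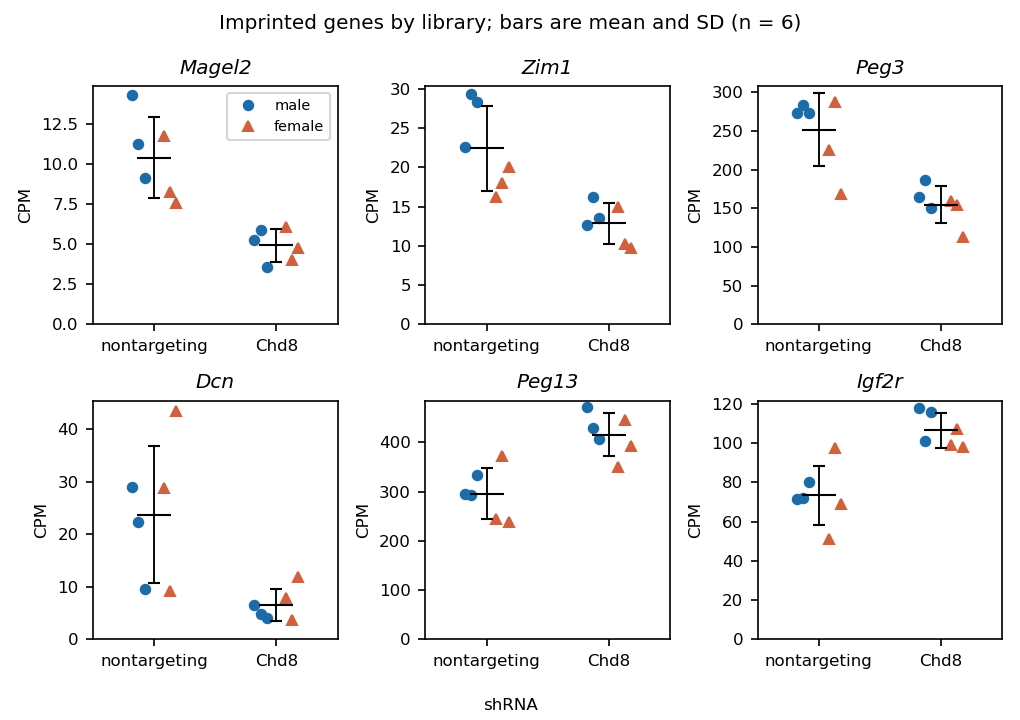
CPM of 6 imprinted genes in nontargeting and Chd8 shRNA libraries; circles are male and triangles female libraries, bars the mean and SD of 6. Magel2, Zim1, Peg3 and Dcn have lower means after Chd8 shRNA (4.92, 12.9, 155 and 6.46 CPM) than with nontargeting shRNA, and Peg13 and Igf2r higher ones (416 and 106 CPM).

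Over all 38 tested members the median change after Chd8 shRNA was -0.13 log2, with 23 below 0, and the median over all genes tested was 0.00. Of the members listed as expressed from the paternal copy 6 of 18 were called, 1 higher, and of those listed as maternal 4 of 8, 1 higher. Beside them, 22.3% of all genes were called, 9.85% higher and 12.5% lower, and the lists were not tested against each other. The other 12 tested members were put on neither list, and 3 of them, Grb10, Ube3a and Dcn, were called lower. Grb10 was among these although it is known for transcription from the paternal copy in neurons, so the counts depend on how the lists were drawn. The summed neuron markers were 7246 to 8004 CPM (median 7519) after Chd8 shRNA against 7772 to 8857 (median 8248), with Tubb3 and Stmn2 called higher and Map2, Syt1, Slc17a7 and Gad2 called lower. The summed level of 8 astrocyte and radial glia markers was 126 to 826 CPM (median 324) against 234 to 554 (median 297), with Gfap the single one of them called (-1.81). The part of cell composition in these changes was not tested.

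After Med13l shRNA Inpp5f had the smallest adjusted p among the members, and Igf2 the largest fitted fold among those called. Inpp5f was at 230 to 474 CPM (median 314) against 482 to 621 (median 542), without overlap, a change of -0.72 ± 0.133 (edgeR adjusted p = 4.99e-05). Mirg, the host transcript of a miRNA cluster, was at 9.98 to 14.5 CPM (median 13) against 14.5 to 21.1 (median 19.1). The highest Med13l shRNA and the lowest nontargeting library were both at 14.5 CPM, and the change was -0.58 ± 0.149 (edgeR adjusted p = 0.00281). Meg3, from the same cluster and strand, was at 909.7 to 1328 CPM (median 1086), also below every nontargeting library, with -0.50 ± 0.161 (edgeR adjusted p = 0.0184). The Meg3 call was lost without nontargeting male or female replicate 1 or Med13l shRNA male replicate 3 (highest 0.0691). Rtl1, Dlk1 and Dio3 of that cluster were not called (-0.37, 0.85 and 0.15).

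The annotated span of Mirg (chr12:109729764-109749460, GRCm38, plus strand) holds 26 mature miRNAs from 14 hairpins in the RefSeq table. The polyA libraries did not measure these miRNAs, and 4 are shown to identify the cluster that the Mirg transcript hosts, with the seed (bases 2 to 8) in capitals. The last 2 share the single seed that occurred more than once among the 26.
miR-134-5p: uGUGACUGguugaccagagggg
miR-154-5p: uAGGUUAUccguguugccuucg
miR-453: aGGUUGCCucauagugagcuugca
miR-496a-5p: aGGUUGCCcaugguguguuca

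Igf2, the fetal growth factor, was at 0.0775 to 0.312 CPM (median 0.236, 2 to 10 counts per library) after Med13l shRNA against 0.682 to 2.20 (median 1.08, 28 to 56 counts). The groups did not overlap and the fitted change was -2.35 ± 0.651 (edgeR adjusted p = 0.00581). Summed meningeal fibroblast markers were 11.3 to 15.6 CPM (median 14.3) after Med13l shRNA, also below every nontargeting library (22.4 to 31.3), with Col1a2, Fn1 and Pdgfra of the 8 genes called lower, and their part in the Igf2 change was not tested. In libraries without virus Igf2 was at 1.81 to 17.5 CPM.

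Of the Prader-Willi cluster, Ube3a was at 99.3 to 157 CPM (median 124) after Med13l shRNA, below every nontargeting library, with -0.58 ± 0.183 (edgeR adjusted p = 0.0151), and Magel2 at 4.37 to 9.15 CPM (median 6.68), with overlap and -0.65 ± 0.218 (0.0240). The Ube3a call was lost without Med13l shRNA female replicate 3 (0.0590). The Magel2 call was lost without nontargeting male or female replicate 1 or Med13l shRNA male or female replicate 3 (highest 0.0992). Commd1, a copper-handling protein whose intron holds the imprinted gene Zrsr1, was the single member that rose, at 17.7 to 49.3 CPM (median 26.5) against 13 to 22.3 (median 18.6), with 0.69 ± 0.191 (edgeR adjusted p = 0.00614). Med13l shRNA female replicate 1 held the 49.3 CPM, and without it the change was not called (0.0792). Leaving out Med13l shRNA female replicate 2 gave 13 called members in place of 8. The median over the 38 members was -0.17, beside -0.01 over all genes. The summed neuron markers were 6443 to 7725 CPM, lower than in every nontargeting library, with Syt1 (-2.34) and Gad1 (-0.62) called lower. Syt1 and Gad1 had medians of 1229 and 787 CPM in the nontargeting libraries, so these 2 of the 10 genes weigh heavily in the lower sum. Of 6 markers of dividing cells, Top2a (-1.70), Cdk1 (-1.83), Ccnb1 (-1.29) and Mki67 (-1.02) were called lower and Pcna (0.69) higher. Their part in the members' changes was not tested here either. Chd8 itself was at 81.9% of nontargeting after Med13l shRNA and was called lower (-0.29 ± 0.0804, edgeR adjusted p = 0.00591). The part of Chd8 in the changes seen after both shRNAs was not tested.

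Dnmt3a shRNA, which lowered its target by 2.13 ± 0.146 log2, had 1 of 38 members called (2.63%), Grb10, beside 1.4% of all genes, and 4 of 38 had an unadjusted p under 0.05. The median change over the members was -0.09, with 15 above 0 and 23 below, beside 0.00 over all genes. The next in order of p was Impact, at 67.4 to 137 CPM (median 89.3) against 131 to 177 (median 144) with nontargeting shRNA. Of its 6 libraries, Dnmt3a shRNA female replicate 2 alone reached the nontargeting range, and the change of -0.67 ± 0.188 had an edgeR adjusted p of 0.0541. Without that library Impact was called (-0.84, edgeR adjusted p = 0.00803), and over all alternatives its adjusted p ran from 0.000133 to 0.787. Magel2 was at 5.71 to 9.96 CPM (median 6.92, -0.54 ± 0.217, edgeR adjusted p = 0.316) and Igf2r at 41.2 to 79.0 (median 58.5, -0.33 ± 0.165, 0.504). Peg13 (0.26 ± 0.140, edgeR adjusted p = 0.559), Airn (0.57 ± 0.312, 0.582), Gnas (-0.20 ± 0.126, 0.686) and Trappc9 (-0.28 ± 0.182, 0.686) were not called, and their libraries overlapped the nontargeting ones.

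Same-numbered libraries deviated together in both sexes for Dnmt3a shRNA and nontargeting shRNA, though weakly in males. The correlations were 0.104, 0.133 and 0.235 in males and 0.451, 0.636 and 0.297 in females, where over 0.1 was required. With the replicate number as a block, 6 members were called after Dnmt3a shRNA, beside 6.97% of all genes. Impact (-0.69 ± 0.123, edgeR adjusted p = 0.000133), Grb10 (-0.31 ± 0.0746, 0.00425), Igf2r (-0.33 ± 0.0997, 0.0287), Magel2 (-0.53 ± 0.162, 0.0325) and Trappc9 (-0.30 ± 0.0944, 0.0379) were lower in that fit, and Peg13 (0.27 ± 0.0820, 0.0309) was higher. The summed astrocyte and radial glia markers were 243 to 1221 CPM after Dnmt3a shRNA against 234 to 554, with Gfap the single one of the 8 called (2.14). The summed level of the 10 neuron markers was 7185 to 8632 CPM (median 8289.6) against 7772 to 8857 (median 8248), with Gad2 the single one called (-0.57). The part of these cells in the members' changes was not tested.

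**Figure D5:**
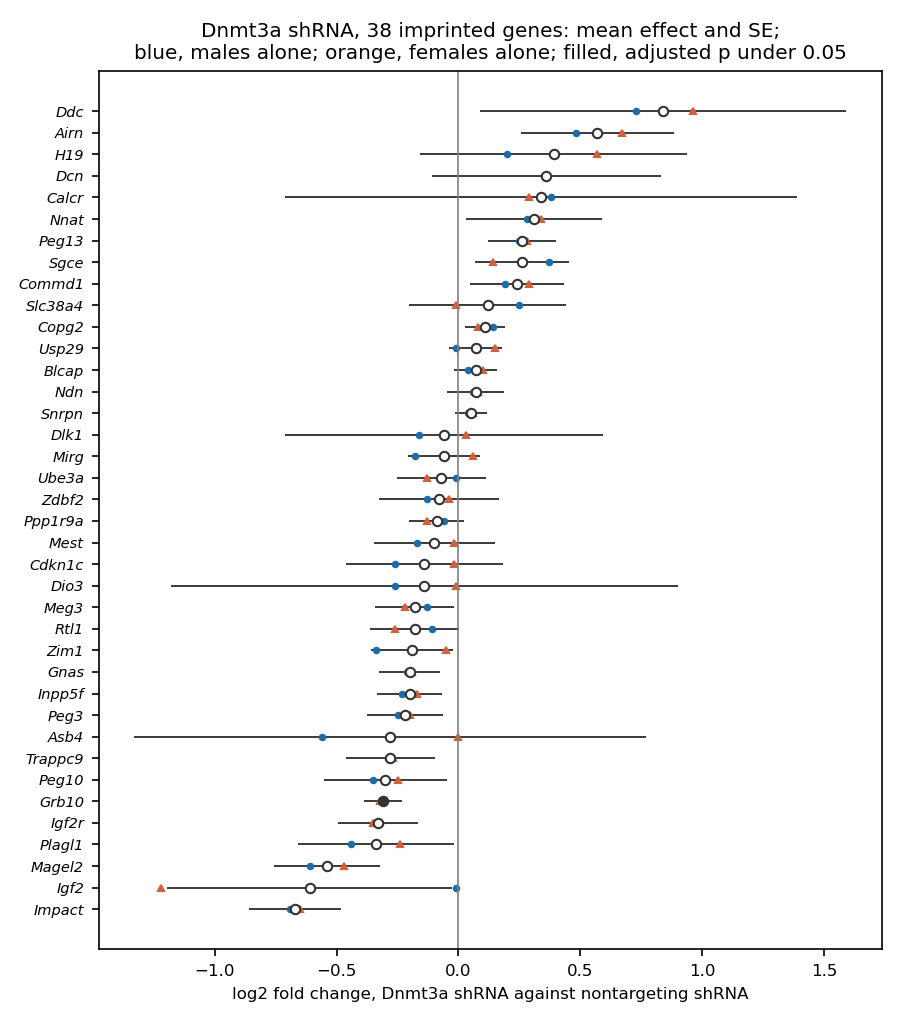
Log2 fold change of each of 38 imprinted genes after Dnmt3a shRNA against nontargeting shRNA; black circles with SE bars are the mean of both sexes, small blue circles males, small orange triangles females, and the filled circle has an edgeR adjusted p under 0.05. Only Grb10 (-0.31) is filled, and Impact lies at -0.67.

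Zim1 was the other member called after Kmt2c shRNA. It was at 9.80 to 15.8 CPM (median 13.9) against 16.3 to 29.4 (median 21.4), without overlap, a change of -0.76 ± 0.169 (edgeR adjusted p = 0.0119). Its cluster neighbours Peg3 (-0.04) and Usp29 (-0.16) were not called. After Mbd5 shRNA the call fell on Peg3 instead, at 111 to 179 CPM (median 152) against 168 to 288 (median 274), with 1 library above the lowest nontargeting library and a change of -0.79 ± 0.156 (edgeR adjusted p = 0.00284), while Zim1 changed by 0.23 and was not called. Whether the effects of Kmt2c and Mbd5 shRNA differ was not tested. With the replicate block, Peg13 (-0.35, edgeR adjusted p = 0.00661) and Ndn (-0.30, 0.0110) were called lower after Mbd5 shRNA as well, 3 members in all beside 3.32% of all genes. After Tbr1 shRNA the block gave 3 members beside 6.57% of all genes, Grb10 higher (edgeR adjusted p = 0.0115) and Peg3 (-0.43, 0.0133) and Ube3a (-0.37, 0.0297) lower.

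Ash1l shRNA lowered Snrpn, a splicing protein gene of the Prader-Willi cluster whose row may share reads with the overlapping Snurf. Snrpn was at 205 to 263 CPM (median 239) against 277 to 312 (median 283), without overlap. The change was small, -0.28 ± 0.0657 (edgeR adjusted p = 0.00376), and was called without each library in turn (0.00481 to 0.0196). It was not called in females alone. Over all alternatives the adjusted p of Snrpn ran from 0.000335 to 0.505, with changes from -0.35 to -0.21.

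After Setd5 shRNA, Blcap and Ppp1r9a fell and Grb10 rose. Blcap, the host gene of Nnat, was at 96.1 to 156 CPM (median 107) against 136 to 162 (median 149), a change of -0.39 ± 0.0893 (edgeR adjusted p = 0.00377). The 156 CPM came from male replicate 1 labelled Setd5 shRNA, in which Setd5 was not lowered. Without it and male replicate 1 labelled Kdm6b shRNA, Blcap changed by -0.50 (edgeR adjusted p = 1.52e-06), Grb10 by 0.30 (0.0119) and Ppp1r9a by -0.40 (0.0426), and Zim1 was called as well (-0.56, 0.0477). Over all alternatives the adjusted p of Blcap ran from 1.52e-06 to 0.812 and that of Zim1 from 0.000185 to 0.973. Nnat changed by 0.34 and was not called. Ppp1r9a, the actin-binding synaptic protein neurabin, was at 77.4 to 113 CPM (median 104) against 108 to 149.6 (median 129), with -0.38 ± 0.115 (edgeR adjusted p = 0.0359), and was lost without nontargeting male replicates 2 or 3 or female replicate 2, or Setd5 shRNA male replicate 2 or female replicate 3 (highest 0.139).

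Zim1 had 1 Setd5 shRNA library far above the others. It was at 10.4 to 14.9 CPM in 5 of them and at 32.7 CPM in Setd5 shRNA female replicate 1. That library held Ddx3y and Kdm5d counts but hardly any of Uty and Eif2s3y. Whether those counts and the Zim1 value are related was not tested. Zim1 changed by -0.51 ± 0.168 (edgeR adjusted p = 0.0646), and without that female library by -0.88 (0.000185). With the replicate block, 9 members were called after Setd5 shRNA beside 16.2% of all genes. These were Mest (0.70), Peg13 (0.40), Grb10 (0.30), Igf2r (0.29) and Snrpn (0.17) higher, and Blcap (-0.39), Ppp1r9a (-0.39), Zim1 (-0.56) and Dcn (-0.55) lower.

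Kdm6b shRNA called no member. Zim1 was at 14.3 to 17.1 CPM against 16.3 to 29.4 in the nontargeting libraries (-0.49 ± 0.167, edgeR adjusted p = 0.172), and Peg3 moved by 0.51 ± 0.156 (0.114), Snrpn by 0.22 ± 0.0656 (0.102) and Grb10 by 0.23 ± 0.0769 (0.158). Without the 2 libraries that went against their labels the count after Kdm6b shRNA was still 0, with 7 members at an unadjusted p under 0.05 in edgeR.

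A difference between the male and female effects was called for no member in any of the 9 comparisons (edgeR and DESeq2 0 calls each, beside 0.0186% of all genes after Setd5 shRNA, 0.00619% higher and 0.0124% lower in males, and 0.0% after each other shRNA). The single member with an unadjusted p under 0.05 in edgeR was Zim1 after Setd5 shRNA, with a male minus female effect of -1.07 ± 0.336 (edgeR adjusted p = 1), where Setd5 shRNA female replicate 1 held the high value. No member was called between nontargeting males and females (edgeR 0 of 38, DESeq2 0, 1 at an unadjusted p under 0.05, beside 0.0434% of all genes), nor did nontargeting and uninfected cultures (edgeR 0 of 38, DESeq2 0, 1 at an unadjusted p under 0.05, beside 0.0% of all genes). That last member was Igf2, with -2.32 ± 0.568 (edgeR adjusted p = 1). Each sex alone had 3 libraries a group and called few members, 5 in males and 1 in females after Chd8 shRNA, beside 9.82% and 9.33% of all genes.

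The other 18 tested members were not called after any shRNA in the main test. Some were called with the replicate block, as given above for Copg2, H19, Mest, Ndn and Trappc9. The block also called Airn after Ash1l shRNA, Usp29 after Kdm6b shRNA, and Nnat, Usp29, Dlk1, Zdbf2, Copg2 and H19 after Med13l shRNA. Same-numbered libraries did not all deviate together for those shRNAs. Copg2, a coatomer subunit, came nearest in the main test, with 0.21 after Chd8 shRNA (edgeR adjusted p = 0.0604). Over the 9 comparisons the fitted changes ran from -0.32 to 0.14 log2 for Ndn, from -0.28 to 0.10 for Trappc9, from -0.26 to 0.28 for Usp29 and from -0.20 to 0.21 for Gnas. Nnat ran from -0.27 to 0.65, Mest, a hydrolase gene, from -0.31 to 0.65, Zdbf2, a zinc finger gene, from -0.43 to 0.24, Plagl1, a zinc finger transcription factor gene, from -0.34 to 0.18 and Sgce, a sarcoglycan gene, from -0.01 to 0.26. Low members had wider ranges, from -1.18 to 1.06 for H19 and from -0.77 to 1.38 for Dio3, the thyroid hormone deiodinase, and counts as low as 2 and 0 in single libraries limit them. Ddc, Dlk1, Asb4, Calcr, Slc38a4 and Airn, all at or under 1.23 CPM on average in the nontargeting libraries, were likewise not called in the main test.

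A second list of 40 imprinted genes had 31 tested, of which 9 (29%) were called after Chd8 shRNA (4 higher, 5 lower) beside 22.3% of all genes, and 6 (19.4%) after Med13l shRNA (1 higher, 5 lower) beside 24.1%. Setd5 shRNA called 2 (6.45%, both lower) beside 5.3% of all genes and Ash1l shRNA 1 (3.23%, lower) beside 6.16%, with 0 after the other 5 shRNAs in edgeR (1 to 5 at an unadjusted p under 0.05). Gab1, a receptor-signalling adaptor, rose from a median of 8.06 to 17.3 CPM after Chd8 shRNA (1.19 ± 0.151, edgeR adjusted p = 2.33e-08). Cd81, a tetraspanin, fell from 207 to 123 CPM (-0.81 ± 0.129, edgeR adjusted p = 2.81e-06), and H13, a signal peptide peptidase, rose by 0.36 ± 0.0692 (8.04e-05). After Med13l shRNA, Bcl2l1, the anti-apoptotic Bcl-x gene, fell from 94.6 to 59.9 CPM (-0.69 ± 0.0641, edgeR adjusted p = 6.15e-12), H13 by 0.31 (0.000666) and Nap1l5, a nucleosome assembly protein gene, from 187 to 73.6 CPM (-0.97 ± 0.272, 0.00638). Peg12 (-1.69 ± 0.406, edgeR adjusted p = 0.00646) and Gab1 (-0.53 ± 0.154, 0.0273) fell after Setd5 shRNA, and Ampd3 (-0.60 ± 0.176, 0.0294) after Ash1l shRNA. The Gab1 call after Setd5 shRNA was lost without 8 of 12 single libraries (all but nontargeting male replicate 3 and female replicate 1 and Setd5 shRNA male replicate 1 and female replicate 2), and the Ampd3 call without 6 of 12 (nontargeting male and female replicates 2, Ash1l shRNA male replicates 1 and 2 and female replicates 1 and 3; highest adjusted p 0.133).

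Of 24 genes that set, keep or read imprints and DNA methylation, 22 were tested. Chd8 shRNA called 9 (40.9%; 4 higher, 5 lower) beside 22.3% of all genes, and Med13l shRNA 9 (40.9%; 4 higher, 5 lower) beside 24.1%. Ezh2, a Polycomb histone methyltransferase, rose from a median of 5.57 to 10.1 CPM after Chd8 shRNA (1.09 ± 0.195, edgeR adjusted p = 2.17e-05), while the methylcytosine dioxygenase Tet1 fell (-0.69 ± 0.145, 0.000280) and so did the chromatin remodeller Atrx (-0.60 ± 0.127, 0.000338). Med13l shRNA raised the histone demethylase Kdm1b (0.51 ± 0.101, edgeR adjusted p = 0.000114) and lowered Atrx (-0.52 ± 0.127, 0.00162) and Zfp57 (-0.48 ± 0.118, 0.00172), the last from a median of 102 to 74.3 CPM. Ash1l shRNA called 3 (13.6%) beside 6.16% of all genes, with Kdm1b (0.50, edgeR adjusted p = 0.000610) and the maintenance methyltransferase Dnmt1 (0.31, 0.00449) higher and Tet1 lower (-0.64, 0.00257). Setd5 shRNA called 2 (9.09%) beside 5.3% of all genes, Tet1 (-0.73, edgeR adjusted p = 0.000988) and Setdb1 (-0.24, 0.0364) lower, the second of which was lost without 8 of 12 single libraries (all but nontargeting female replicate 3, Setd5 shRNA male replicate 1 and female replicates 2 and 3). Dnmt3a and Mbd5 shRNA called 1 gene each, their own target, and Kdm6b, Kmt2c and Tbr1 shRNA called 0 in edgeR (7, 4 and 4 at an unadjusted p under 0.05).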

How the data were processed

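PolyA RNA from 66 libraries was sequenced by the submitters from stranded mRNA libraries. The deposited table holds whole-number counts per gene made by the authors with STAR and featureCounts on mm10, per the submitters' processing notes; versions, annotation, strand setting and the handling of read pairs are not given in the sources used here. It has 72 library columns, of which 6 belong to no sample used here and were left out. Of its 48716 rows, 18483 name no gene and held 0.690 to 1.415% of a library's counts; they stayed out of library sizes and tests, and 149 rows that repeat a symbol were summed into it, giving 30084 symbols. Columns whose names hold Luc were matched to the nontargeting shRNA samples, an identity the labels do not spell out.

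Counts were scaled by TMM (factors 0.874 to 1.06) and tested with edgeR 4.0.16 (R 4.3.3; quasi-likelihood F test, robust, low counts removed by filterByExpr, 1 mean per group over all 66 libraries). Each contrast was the mean of the male and the female effect against same-sex nontargeting libraries, with Benjamini-Hochberg adjustment over 16145 genes and a threshold of 0.05. Total counts of 13759741 to 66558546 per library set the precision. Odd numbers made up 26.72% of counts from 1 to 20 and 49.07% of counts from 1000 up, so halved counts were one alternative. The others were DESeq2 1.42.0, its size factors, no filter, a replicate block, only the libraries compared, no virus as control, each sex alone, leaving out the 2 libraries that go against their labels, and leaving out each library. The numbers were taken to pair the libraries where the correlation of same-numbered deviations was over 0.1 in every pair of both sexes. That held for the Chd8, Dnmt3a, Kmt2c, Mbd5, Setd5 and Tbr1 shRNA comparisons. Ash1l and Med13l shRNA met it in females only, and Kdm6b shRNA in neither sex. On simulated data for the Chd8 shRNA comparison (15782 genes), the test recovered 26% of 96 genes changed by 0.5 log2 and 75.3% of 97 changed by 1. Gene positions and exon lengths came from GENCODE for GRCm38, and promoters and miRNAs from RefSeq. The members and the other lists were chosen with earlier results of these data known. The text names every member called in at least 1 knockdown comparison, the 8 members with the smallest p after Dnmt3a shRNA, and of each further list at most 3 called genes per comparison by adjusted p; cluster neighbours and members not called were named after their values were seen.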

Additional observations from a re-analysis of the deposited data

How the results depend on the processing

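The number of called members depended on the processing in every comparison, and the cause was not tested beyond what each alternative's own construction shows (3 libraries a group in each sex alone). After Chd8 shRNA (13) males alone gave 5 and females alone 1. After Med13l shRNA (8) these were 2 and 1, and the replicate block gave 20, beside 41.5% of all genes. After Setd5 shRNA (3) males alone gave 0, females alone 1, the block 9, no virus as control 6 and only the libraries compared 0. After Kmt2c shRNA (2) males and females alone gave 0 each, no filter 1 and only the libraries compared 1. After Dnmt3a shRNA (1) males alone, females alone, no filter and only the libraries compared gave 0 each, the block 6, and halved counts, DESeq2 and leaving out the 2 libraries that go against their labels 2 each. After Ash1l shRNA (1) females alone gave 0, the block 3 (beside 17.2% of all genes), no virus as control 3 and only the libraries compared 2. After Mbd5 shRNA (1) males and females alone gave 0 each, the block 3 and no virus as control 2. After Tbr1 shRNA (1) males alone, females alone, no filter and only the libraries compared gave 0 each, the block 3 and no virus as control 2. After Kdm6b shRNA (0) the block gave 8 (beside 7.87% of all genes), no virus as control 1 and DESeq2 1. The block gave 16 after Chd8 (beside 36.9% of all genes) and 2 after Kmt2c shRNA (beside 2.97%). For Ash1l, Kdm6b and Med13l shRNA the correlation of same-numbered deviations was not over 0.1 in every pair, so their block counts are less certain. In females the lowest correlation was 0.229 for Ash1l and 0.226 for Med13l shRNA, and in males -0.108 and 0.019. Kdm6b shRNA had a lowest value of 0.0362 in females and 0.0354 in males. Zim1 after Setd5 shRNA reversed in females alone (0.03, edgeR adjusted p = 0.973).

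Leaving out 1 library at a time gave 7 to 12 called members after Chd8 shRNA, 6 to 13 after Med13l, 2 to 4 after Setd5, 1 to 2 after Kmt2c, 0 to 2 after Dnmt3a, 0 to 2 after Kdm6b, 0 to 1 after Tbr1 and 1 to 1 after Ash1l and Mbd5 shRNA. For males against females, nontargeting against no virus, and every male minus female effect it gave 0 to 0. On simulated data for the Chd8 shRNA comparison, 26% of 96 genes changed by 0.5 log2 were recovered. Far fewer genes were changed there than the 3607 called in the measured comparison, which makes the adjustment of p stricter. The simulated spread followed the trend over genes and not each gene's own. That share therefore does not carry over to the members, of which Grb10 was called at changes between -0.31 and 0.32. Members not called may still have changed.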
